A study of Mus musculus with 4 samples.

Results

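The 32 genes described here belong to the integrated stress response and to the amino-acid metabolism that this response drives. They were taken by symbol from the gene lists of the count matrices, which hold 32285 genes, and all 32 were found. The members were selected on levels measured in these same libraries, starting from the genes that lead a small cluster of tumour cells with high Fgf21 and adding genes of the same response, so the contrast between Fgf21-positive and other tumour cells is given below as a description and without a test. Ddit3 has 2 rows on the same strand of chromosome 10 with overlapping coordinates. The row with UMIs (unique molecular identifiers, 1 per captured transcript) was used, since the other held none in tumour cells, and how reads in the overlap were counted is not given in the sources used here.

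The samples are 4 droplet single-cell RNA libraries from tumours of C57Bl6 mice aged 6 to 8 weeks. The treatment label is Nanocapsule in 2 of them, Nanocapsule 1 and 2, and Control in the other 2, Control 1 and 2, so n = 2 per group throughout. The series title describes the nanocapsules as carrying enzymes, and the labels call the cells cancer cells. The tumour line, the enzymes, the dose and the relation of libraries to animals are not given in the labels, so every p-value below measures the spread between these 4 libraries.

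The integrated stress response begins when one of several kinases phosphorylates the translation factor eIF2, which slows most protein synthesis while the messenger RNA of the transcription factor ATF4 is translated more. ATF4 and its partner CHOP, encoded by Ddit3, then act with C/EBP proteins on genes for amino-acid synthesis, amino-acid uptake, glutathione breakdown and the secreted hormones FGF21 and GDF15. In tumours the response is known as an adaptation to low amino acids, low oxygen, oxidants and misfolded protein.

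ATF4 and C/EBP proteins bind together to a composite element whose core can be written TGATGNAA, where N is any base. Both strands were searched for it in the promoter windows that RefSeq gives for GRCm38.p6, from 250 bases before to 50 bases after each annotated start. The element stood in 3.97% of 32851 windows, and 4.51% of the 27025 genes with a window had it in at least 1. Of the 27 members with a window, 8 held it, and in 6 of these, Fgf21, Chac1, Asns, Pck2, Nupr1 and Vldlr, it lay wholly before a start. Trib3 held it after the start and Slc1a4 across it. Aldh1l2, Cth, Slc7a5, Eif4ebp1 and Slc1a5 had no window. The windows of 5 members whose levels are described below are printed here to show the element in its surroundings, 5′ to 3′ on the strand of the gene, with the element in capitals. In Asns the capitals read along the gene, and in the other 4 they are its reverse complement.
Fgf21: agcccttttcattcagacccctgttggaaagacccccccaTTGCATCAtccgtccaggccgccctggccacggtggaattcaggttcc
Nupr1: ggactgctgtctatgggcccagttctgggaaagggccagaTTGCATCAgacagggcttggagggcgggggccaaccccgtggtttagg
Chac1: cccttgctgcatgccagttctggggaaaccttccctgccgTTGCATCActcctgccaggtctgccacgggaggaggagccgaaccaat
Pck2: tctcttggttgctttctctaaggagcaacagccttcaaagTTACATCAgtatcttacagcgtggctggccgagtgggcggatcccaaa
Asns: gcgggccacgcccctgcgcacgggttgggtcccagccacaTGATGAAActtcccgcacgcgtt
The stretch for Fgf21 is chr7:45615582-45615669 on the minus strand, and its element ends 132 bases before the start. The stretch for Nupr1 is chr7:126625533-126625620 on the minus strand, with the element 103 bases before the start. Chac1 has chr2:119351009-119351096 on the plus strand and Pck2 has chr14:55540123-55540210 on the plus strand, at distances of 186 and 96 bases. The stretch for Asns is chr6:7693210-7693272 on the minus strand, 16 bases before the start. These matches describe letters and not bound sites, and a window without them says only that these letters are not in it.

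Between 1076 and 3255 cells were called per library, at medians of 59190 and 85275 UMIs in Nanocapsule 1 and 2, and of 38034 and 78299 UMIs in Control 1 and 2. Control 1 was therefore the shallowest library per cell. Called cells of different libraries shared at most 13 barcodes. Melanocytic tumour-like cells, named from pigment-cell transcripts such as Dct and Pmel, numbered 1477 and 945 in the nanocapsule libraries and 3127 and 976 in the control libraries. Levels from a fit are given as CPM, the UMIs of a gene per 1000000 UMIs after TMM scaling of the libraries, and levels of other sets of cells as UPM, plain UMIs per 1000000 UMIs summed over those cells. Fgf21, a hormone of the fasting and stress response that is made mainly by the liver in healthy mice, was carried by few tumour cells. In tumour-like cells it was at 5.0 and 11.6 CPM in Nanocapsule 1 and 2, against 0.648 and 9.57 CPM in Control 1 and 2. Control 1 stood far below the other 3 libraries, and the groups overlapped (log2 fold nanocapsule over control 0.72 ± 1.16 SE, adjusted p = 0.912, edgeR quasi-likelihood test with Benjamini-Hochberg adjustment). Without Control 1 the log2 fold was -0.21, without Nanocapsule 2 it was -0.02, and without Control 2 it was 3.67.

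A tumour-like cell was called Fgf21-positive at 2 or more Fgf21 UMIs. There were 25 such cells in Nanocapsule 1 and 40 in Nanocapsule 2, which is 1.69% (exact Clopper-Pearson 95% interval 1.10 to 2.49) and 4.23% (3.04 to 5.72) of the tumour-like cells. Control 1 held 17, or 0.544% (0.317 to 0.869), and Control 2 held 30, or 3.07% (2.08 to 4.36). These intervals cover counting error only. The group means were 2.96% ± 1.80 in nanocapsule and 1.81% ± 1.79 in control libraries (SD, n = 2 each), which a two-sided exact permutation test over libraries did not separate (p = 0.667, where 0.333 is the smallest that 2 against 2 allows). The ratio of the means followed single libraries, with a log2 value of 2.45 without Control 2, -0.05 without Control 1 and -0.10 without Nanocapsule 2. With every cell thinned to 8000 UMIs the shares with at least 1 Fgf21 UMI were 1.22% and 2.86% in nanocapsule and 0.608% and 2.46% in control libraries, so the order of libraries was the same at equal depth.

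Within the positive cells Fgf21 was itself uneven. The highest cell held 110, 211, 7 and 118 Fgf21 UMIs in Nanocapsule 1, Nanocapsule 2, Control 1 and Control 2. The 5 highest cells carried 70.4% and 50.3% of all Fgf21 UMIs of tumour-like cells in the nanocapsule libraries and 27.9% and 59.1% in the control libraries. Of the 112 positive cells, 83 fell in 1 cluster of 369 cells that was led by Fgf21, Cdsn, Akr1b7, Tenm4 and Grb14, and 16 fell in a cluster led by Nppb and Pgf. The first held 16 of 25 and 31 of 40 positive cells in Nanocapsule 1 and 2, but 7 of 17 in Control 1 and 29 of 30 in Control 2. The second held 6 of those in Control 1. Positive cells of Control 1 thus lay mostly outside the Fgf21-led cluster, which limits comparisons of positive cells between libraries. Positive cells were no shallower than the rest, at medians of 65899, 91486, 40967 and 87434 UMIs beside 61640, 90413, 38627 and 82570 UMIs in other tumour-like cells of the same libraries.

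Fgf21 was at or near 0 in immune cells. At a minimum of 1500 UMIs per cell, no Fgf21 UMI was found in 216 T-like or 157 B-like cells, and 1 of 583 macrophage-like cells, in Nanocapsule 2, held any. For T-like cells a count of 0 allows a share of up to 6.00% and 4.55% in the nanocapsule and 15% and 3.75% in the control libraries. These limits are on cells with a Fgf21 UMI and not on cells that express the gene, since the median depth of T-like cells, 2999 to 6850 UMIs, was far below that of tumour-like cells. Free RNA, read from barcodes of fewer than 100 UMIs, held Fgf21 at 2.03 and 6.32 UPM in Nanocapsule 1 and 2, against 0.250 and 3.42 in Control 1 and 2. At the minimum of 1500 UMIs a cluster of 483 shallow barcodes, with a median of 4678 UMIs and 0.24% mitochondrial UMIs, also had Fgf21 and Cdsn among its leading genes. Its Fgf21 was at 21.3 and 108 UPM in the nanocapsule and 4.15 and 78.9 in the control libraries. Haemoglobin transcripts led it by fold but made up 0.04% of its UMIs, and it is given no cell type here.

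The Fgf21-positive cells had higher levels of nearly the whole list. Of the 28 members at 5 or more UPM over all tumour-like cells, 18 were at least 2-fold higher in positive than in other tumour-like cells in each of the 4 libraries, where 0.853% of 9843 genes were. Fgf21, which chose the positive cells, is counted among the 28 and the 18. All but 1 of those 28 were higher in each library, beside 17.5% of genes. Because this contrast led to the list, nothing is read from these counts. Over the 31 members other than Fgf21 the median log2 fold was 1.99, 1.87, 1.80 and 2.86 in Nanocapsule 1, Nanocapsule 2, Control 1 and Control 2.

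**Figure D1:**
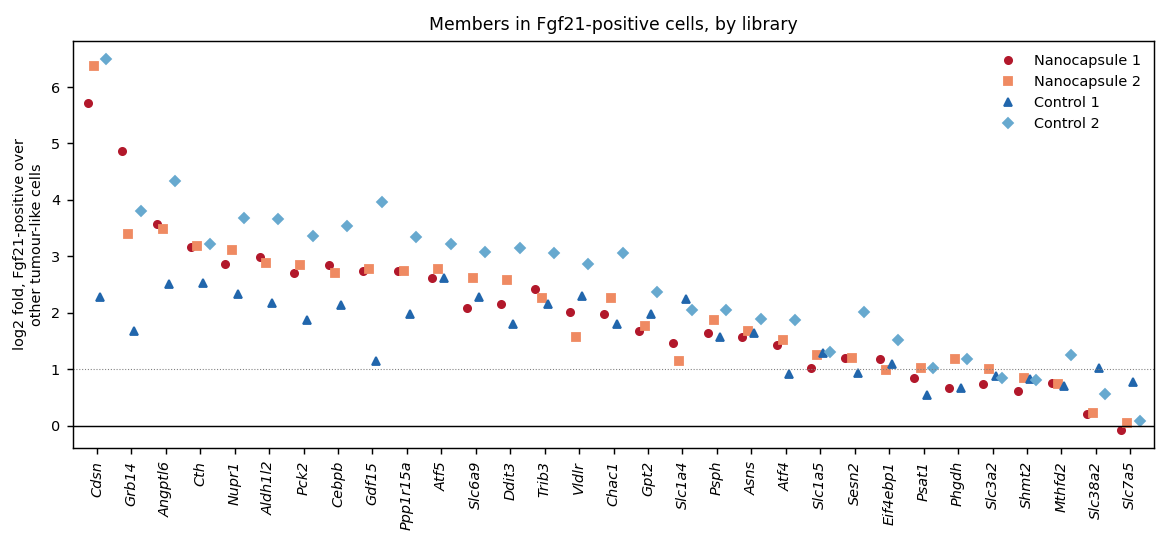
Log2 fold of Fgf21-positive over other tumour-like cells for the 31 members other than Fgf21, ordered by their median. Each point is 1 library (Nanocapsule red and orange, Control dark and light blue), the solid line marks no difference and the dotted line 2-fold. Cdsn, Grb14 and Angptl6 stand at the left and Slc38a2 and Slc7a5, near the solid line, at the right.

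The core factors of the response were all higher in positive cells, by unequal amounts. Atf4, the transcription factor at its centre, was at 623, 752, 395 and 784 UPM in positive cells of Nanocapsule 1, Nanocapsule 2, Control 1 and Control 2, against 232, 264, 211 and 215 in the other tumour-like cells, a median of 2.76-fold. Ddit3, the CHOP gene, was at 247, 374, 160.0 and 345 against 55.6, 62.4, 46.1 and 39.0, a median of 5.17-fold. In each library the positive cells lay above the others for both factors, and Control 1 had the lowest positive value. Cebpb, a partner of ATF4 in binding DNA, showed a median of 6.86-fold, and Atf5, a related stress factor, 6.47-fold. The feedback arm was higher as well: Trib3, a pseudokinase that restrains ATF4 signalling, by a median of 5.05-fold, and Ppp1r15a, the stress-induced subunit of the eIF2 phosphatase, by 6.66-fold.

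By the median over libraries, the members furthest apart were Cdsn, Grb14 and Angptl6, although in Control 1 the highest was Atf5, at 6.14-fold, with Cth at 5.73-fold and Grb14 at 3.20-fold. Cdsn, the skin adhesion protein corneodesmosin, was at 47.6, 61.6, 1.5 and 53.4 UPM in positive cells, against 0.900, 0.740, 0.310 and 0.590 in other tumour-like cells, in the library order above. The Control 1 value rests on 1 UMI, which gives 4.83-fold with a counting interval of 0.12 to 28.5, whereas the other 3 libraries lay between 52.7-fold and 89.99-fold. Grb14, an adaptor that dampens insulin receptor signalling, was at 97.3, 37.9, 11.97 and 40.2 UPM in positive cells, against 3.33, 3.61, 3.74 and 2.88 in the others. Angptl6, a secreted angiopoietin-like factor, was at 67.5, 51.6, 37.4 and 77.0 against 5.67, 4.61, 6.58 and 3.83. Gdf15, the other hormone of the list, stayed scarce, at 5.95, 5.99, 1.5 (1 UMI) and 18.2 UPM in positive cells and 0.890, 0.870, 0.680 and 1.16 in the others. The positive cells made up 4.01% of tumour-like UMIs in Nanocapsule 2, but held 77.7% of its Cdsn, 31.9% of its Angptl6 and 30.5% of its Grb14 UMIs. That share of UMIs was 1.64% in Nanocapsule 1, 0.529% in Control 1 and 3.16% in Control 2. Positive cells held 102 of 616, 25 of 853 and 199 of 502 Angptl6 UMIs in these libraries. In Control 1 they held 1 of 40 Cdsn UMIs.

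Among metabolic members, the enzyme genes Cth, Aldh1l2 and Pck2 were further apart than the genes of serine synthesis. Cth, which makes cysteine from cystathionine, was at 103, 116, 74.8 and 123 UPM in positive cells, against 11.4, 12.7, 13.1 and 13.2 in other tumour-like cells. Aldh1l2, the mitochondrial formyltetrahydrofolate dehydrogenase, was at 347, 328, 191 and 355 against 43.9, 44.7, 42.3 and 27.9. Pck2, the mitochondrial phosphoenolpyruvate carboxykinase, was at 226, 260.2, 129 and 276 against 34.6, 36.0, 35.1 and 26.7. All 3 were higher in positive cells of each library, as were nearly all members. Nupr1, a small chromatin protein of the stress response, was at 434, 466, 257 and 505 UPM in positive cells and 59.8, 54.2, 51.1 and 39.4 in the others. Asns, which makes asparagine, had a median of 3.15-fold and Psph, the last enzyme of serine synthesis, 3.36-fold. The first 2 enzymes of that pathway, Phgdh and Psat1, were each at a median of 1.90-fold. Shmt2 and Mthfd2, which pass serine carbon to mitochondrial folate, were at 1.75-fold and 1.68-fold.

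The amino-acid carriers Slc7a5 and Slc38a2 were the least set apart of all members. Slc7a5, the leucine carrier, was at 119.8, 149, 226 and 130.1 UPM in positive cells, against 126, 144, 132 and 124 in other tumour-like cells, and was lower in positive cells of Nanocapsule 1. Slc38a2, a sodium-coupled carrier of small neutral amino acids, was at 124, 131, 206 and 150.2 against 108, 112, 101 and 102. For both carriers the largest excess was in Control 1, the library with the smallest for Cdsn and Grb14. Slc3a2, the partner chain of Slc7a5, was at a median of 1.81-fold. The glycine transporter gene Slc6a9 differed from these carriers, with a median of 5.46-fold, and Slc1a4 and Slc1a5, carriers of alanine, serine, cysteine and glutamine, had 3.38-fold and 2.41-fold.

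For some members the level also followed the number of Fgf21 UMIs per cell. Over all libraries, Nupr1 was at 48.7 UPM in 6325 tumour-like cells with none, 230.3 in 88 cells with 1, 331 in 49 cells with 2 to 4, 444 in 34 cells with 5 to 19 and 639.7 in 29 cells with 20 or more. Cdsn followed the same order, at 0.540, 4.99, 19.7, 33.4 and 117 UPM, as did Pck2, at 32.5, 97.5, 150.0, 247 and 383. Within single libraries Cdsn kept the order only in Nanocapsule 2. It was at 0 UPM in the 3 cells of Control 1 with 5 to 19 Fgf21 UMIs. In Nanocapsule 1 it was at 93.5 UPM in cells with 5 to 19 and at 74.19 in cells with 20 or more. In Control 2 it was at 0 UPM in the 9 cells with 1 Fgf21 UMI, and cells with 5 to 19 lay below those with 2 to 4. Over all libraries several members did not rise at each step. Trib3 was at 36.6, 163, 216, 181 and 249 UPM and Aldh1l2 at 38.8, 134, 315, 249 and 444. Mthfd2 was at 238, 484, 475, 429 and 447, and Slc7a5 at 131, 145, 160.2, 132 and 136. No cell of Control 1 reached 20 Fgf21 UMIs, so the last group holds 3 libraries, and the libraries take different shares of each group.

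In the Fgf21-led cluster, which Fgf21 itself helped to define, Control 1 differed from the others in Fgf21 and Cdsn far more than in the other members given here. The cluster held 53 and 58 cells in Nanocapsule 1 and 2 and 193 and 65 cells in Control 1 and 2, that is 3.59% and 6.14% of tumour-like cells against 6.17% and 6.66%. Its Fgf21 was at 129 and 194 UPM in the nanocapsule libraries, against 5.24 and 157 in Control 1 and 2. Cdsn was at 29.6 and 49.0 against 1.31 and 31.7. Trib3 was at 198 and 196 in the nanocapsule libraries, against 180.0 and 218 in Control 1 and 2, and Chac1, which degrades glutathione, was at 188 and 189 against 219 and 222. Asns and Phgdh also lay within a narrower range over the 4 libraries, at 341 and 362 against 274 and 372 for Asns and 398 and 439 against 441 and 465 for Phgdh.

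Markers of other cell types were near 0 in the positive cells. Ptprc and Cd3e, which mark leukocytes and T cells, had no UMI there in any library, nor had Tyrobp, and the macrophage genes C1qa, C1qb and C1qc reached at most 3.31 UPM. Of the 13 markers of leukocytes, fibroblasts, endothelium and red cells examined, the highest was Fcer1g, at 5.98 UPM. Pigment transcripts were present but differed: Pmel was at 912, 1034, 2749 and 765 UPM in positive cells of Nanocapsule 1, Nanocapsule 2, Control 1 and Control 2, against 2177, 2152, 2536 and 2146 in other tumour-like cells. Pmel was thus lower in positive cells of 3 libraries and slightly higher in Control 1, and Tyr ran the same way, at 369.9, 314, 894 and 277 against 727, 644, 674 and 676. Dct and Tyrp1 followed the same pattern, and Mlana was lower in positive cells of all 4 libraries. The part of pigment levels in the result for the list was not tested.

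The members differed in how unevenly they were spread over tumour-like cells. Spread was measured as the Fano factor, the variance over the mean of UMIs per cell, which is 1 for random sampling alone, with every tumour-like cell thinned to 8000 UMIs. For genes with a mean of at least 0.05 UMIs the median Fano factor was 1.07 to 1.08 and the 90th percentile 1.33 to 1.44 in the 4 libraries. Fgf21 was highest, at 10.4 and 7.56 in Nanocapsule 1 and 2 and 1.18 and 8.75 in Control 1 and 2. Nupr1 followed at 3.24 and 3.20 in the nanocapsule libraries and 2.21 and 3.69 in the control libraries. Eif4ebp1, which restrains cap-dependent translation, Aldh1l2, Cebpb, Ddit3, Chac1 and Atf4 had medians over libraries of 2.78, 2.46, 2.35, 2.27, 2.19 and 2.11. Of these, Eif4ebp1 and Atf4 were widespread, with a UMI in 78.8% to 90.5% and 72.75% to 79.4% of thinned cells. The Fano factors of all genes were not matched for mean level, and the part of level in this ranking was not tested. Once the Fgf21-positive cells were left out, the median was 2.52 for Nupr1, 2.66 for Eif4ebp1, 2.19 for Chac1 and 1.91 for Atf4, so much of their spread lay among the other tumour-like cells.

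**Figure D2:**
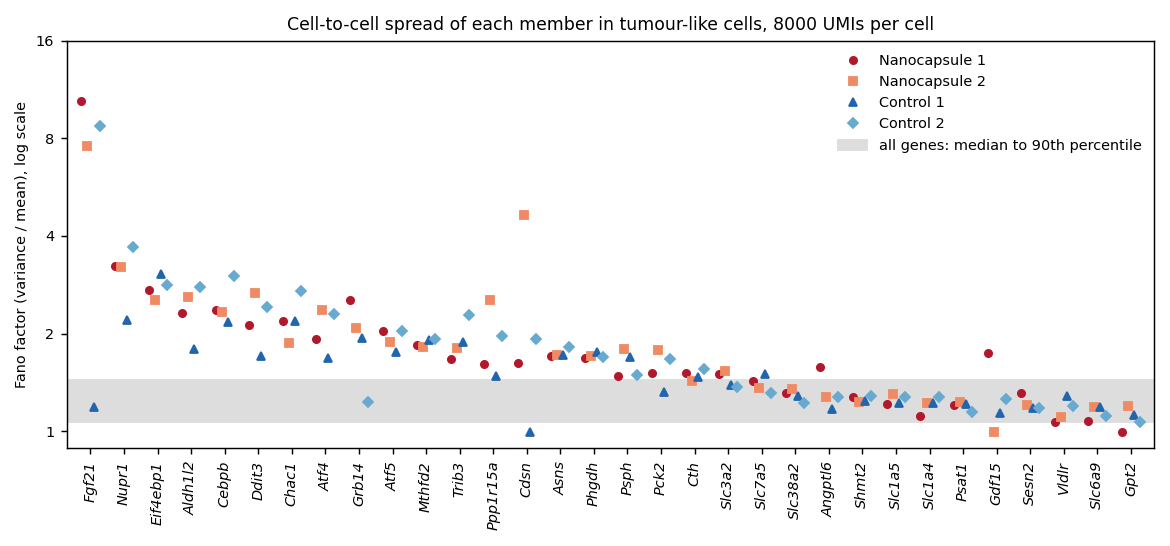
Fano factor of each member in tumour-like cells thinned to 8000 UMIs, on a log scale, ordered by the median over libraries. Points are libraries, and the grey band runs from the median to the 90th percentile of all genes. Nupr1 lies above the band in all 4 libraries and Fgf21 in all but Control 1, and Slc1a5, Slc1a4, Psat1, Sesn2, Slc6a9 and Gpt2 lie in it or below it.

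Other members were also found in a large share of cells, with lower Fano factors. Psat1 had a UMI in 44.5% and 49.3% of thinned cells in Nanocapsule 1 and 2 and in 43.3% and 48.7% in Control 1 and 2, with a Fano factor of 1.14 to 1.23. This placed it at the 67.4 to 84.5 percentile of genes. Shmt2, at 1.23 to 1.29, and Slc38a2, at 1.22 to 1.35, stood below the 90th percentile in all 4 libraries. Slc7a5, at 1.31 to 1.499, stood at percentiles 91.5 and 89.0 in Nanocapsule 1 and 2 and 93.6 and 85.3 in Control 1 and 2. Grb14, Cdsn, Angptl6 and Vldlr, a lipoprotein receptor, had a UMI in at most 5.28% of thinned cells, and their Fano factors of 1.00 to 4.65 rest on few UMIs. Phgdh and Mthfd2 were widespread yet uneven, in 66.5% to 73.1% and 69.9% to 77.1% of cells with Fano factors of 1.68 to 1.76 and 1.82 to 1.92.

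The summed level of the 31 members other than Fgf21 was higher in positive cells, over a range that the other tumour-like cells overlapped. At 8000 UMIs per cell, positive cells held medians of 58, 62, 52 and 59 summed UMIs in Nanocapsule 1, Nanocapsule 2, Control 1 and Control 2, and other tumour-like cells 17, 18, 16 and 13. The highest positive cell held 98, 94, 67 and 100 summed UMIs, and the highest other cell 105, 109, 93 and 85. More than 48 UMIs, the 95th percentile of all tumour-like cells, were found in 64.0%, 67.5%, 58.8% and 80.0% of positive cells. The same level was passed by 44, 37, 136 and 27 of the other tumour-like cells, more in number than the positive cells above it in every library. Outside the positive cells, the pairs of members with the highest median correlation across cells were Mthfd2 with Eif4ebp1 and Trib3 with Chac1. Pearson's r was 0.43, 0.41, 0.42 and 0.42 for the first pair in the same library order, and 0.38, 0.26, 0.42 and 0.39 for the second. At 8000 UMIs the mean per cell was 0.270 to 0.469 UMIs for Trib3 and 0.328 to 0.460 for Chac1. What such low counts take from r was not tested. Cells of a library share its depth and preparation, so these correlations describe the libraries.

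**Figure D3:**
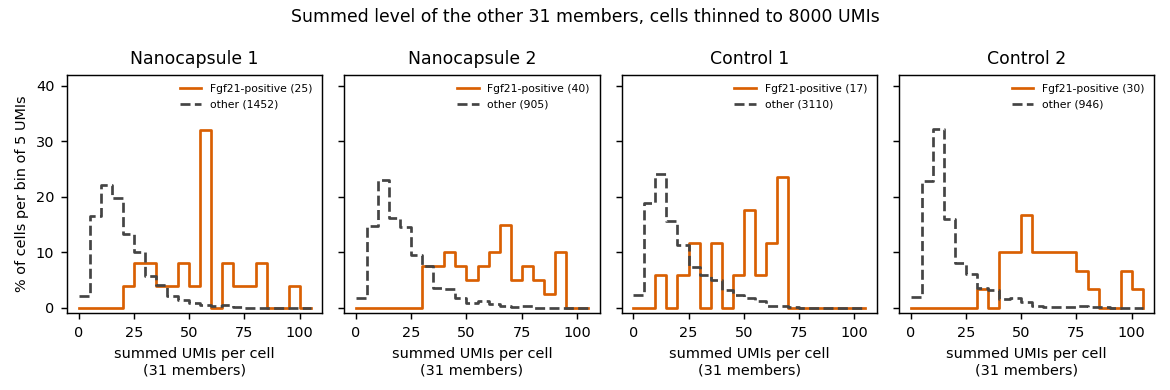
Distribution over cells of the summed UMIs of the 31 members other than Fgf21, with each cell thinned to 8000 UMIs, for the 4 libraries. The solid line gives Fgf21-positive cells and the dashed line other tumour-like cells, as percent of cells per bin of 5 UMIs, with the number of cells in brackets. Medians were 52 to 62 in positive and 13 to 18 in other cells.

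Other genes shared the pattern of the list. By the rule of the highest minimum, over the 4 libraries, of the log2 fold of positive over other tumour-like cells, the 10 closest genes outside the list were Tenm4, Isg20, Cyb5r2, Gadd45a, Stard5, Nnmt, Slc7a11, Pycr1, Kdelr3 and Rab39b. Tenm4, a neuronal adhesion protein, was at 212, 152, 127 and 276 UPM in positive cells, against 11.7, 10.4, 13.7 and 9.94 in other tumour-like cells, a minimum log2 fold of 3.13. Slc7a11, the cystine carrier, was at 83.4, 96.3, 61.3 and 115 against 17.0, 22.2, 14.5 and 12.03, and Pycr1, an enzyme of proline synthesis, at 74.8, 61.3, 41.9 and 73.2 against 9.77, 7.70, 10.0 and 6.88. The minimum log2 fold was 2.38 for Isg20 and 1.91 for Rab39b, the bounds of the other 9 genes. Likeness was measured over the same 4 libraries that gave the list.

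Whether the treatment altered the list in tumour cells was examined on UMIs summed per library. The members differed little between nanocapsule and control libraries. With nanocapsules 28 of the 32 were higher, beside 50.5% of all 16191 genes tested, and their median log2 fold was 0.20 beside 0.00 over all genes. None of the 32 passed edgeR's quasi-likelihood test at an adjusted p of 0.05, nor did any other gene (0%). At an unadjusted p under 0.05, 9 members were higher and 0 lower, beside 3.99% and 3.51% of genes. DESeq2, run as an alternative, called 79 genes higher and 16 lower, and among them 2 members, Nupr1 and Ddit3. The median log2 fold of the members was 0.10 without Nanocapsule 2 and 0.10 without Control 2. In all called cells together, none of the 32 passed by edgeR (0% of 16937 genes) and 3, Cebpb, Nupr1 and Ddit3, by DESeq2, which called 135 genes higher and 37 lower. There 7 members were higher at an unadjusted p under 0.05 and 0 lower, beside 4.29% and 3.63% of genes, and the groups did not overlap for 12 higher, beside 19.9%, and 1 lower, beside 19.1%.

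Nupr1 and Ddit3 had the smallest unadjusted p of the members in tumour-like cells. Nupr1 was at 67.1 and 69.7 CPM in nanocapsule libraries, against 54.1 and 52.0 CPM in control libraries. Both nanocapsule libraries lay above both controls, and the log2 fold was 0.37 ± 0.07 SE (edgeR unadjusted p = 0.00142, adjusted p = 0.648, and DESeq2 adjusted p = 0.0293). Ddit3 was at 59.8 and 73.8 CPM with nanocapsules, against 48.4 and 46.8 CPM in controls. Its groups did not overlap either, at a log2 fold of 0.49 ± 0.11 SE (edgeR adjusted p = 0.648, DESeq2 adjusted p = 0.0389). This fold was 0.33 to 0.63 with any 1 library left out. Atf4 was at 243 and 280.0 CPM against 219.8 and 224 CPM (log2 fold 0.24 ± 0.09 SE), Cebpb at 44.5 and 50.9 against 41.5 and 35.3 (0.31 ± 0.11), and Ppp1r15a at 40.1 and 55.0 against 35.9 and 37.5 (0.37 ± 0.15). In these 3 the groups did not overlap, and none passed the adjusted test.

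**Figure D4:**
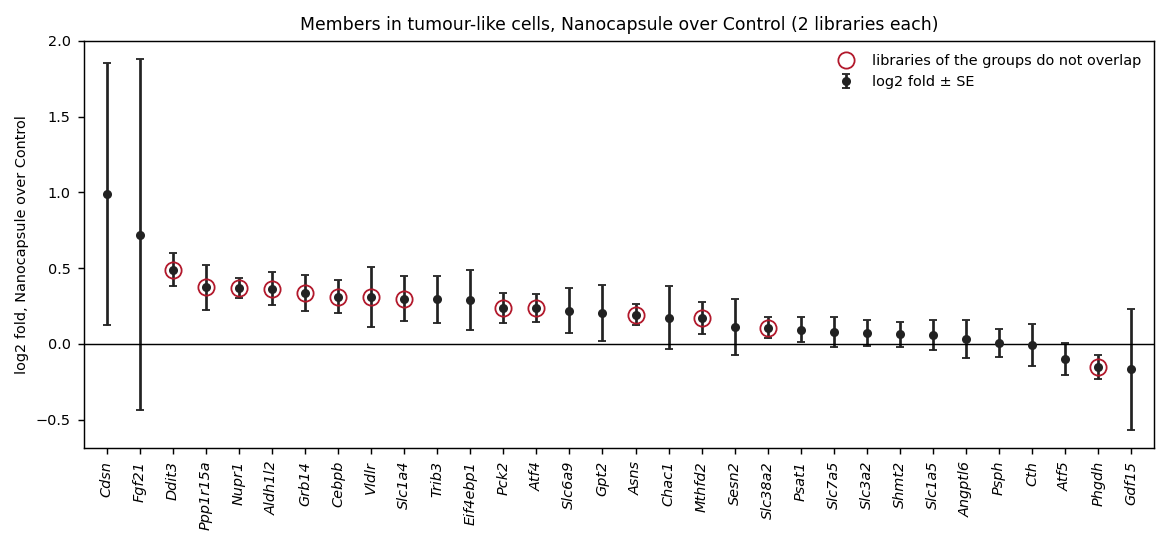
Log2 fold of Nanocapsule over Control in tumour-like cells for the 32 members, ordered by size, with bars for the standard error of the edgeR fit on 2 libraries per group. Red circles mark members whose nanocapsule libraries all lie on one side of the control libraries. Most members lie between 0 and 0.50, and the bars of Fgf21 and Cdsn span more than 1 unit.

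Across the 32 members, the groups did not overlap for 13 that were higher with nanocapsules and for 1, Phgdh, that was lower, beside 19.7% and 18.8% of all genes. Aldh1l2 was at 49.7 and 55.3 CPM with nanocapsules, against 44.7 and 36.8 CPM in controls (log2 fold 0.36 ± 0.11 SE), Grb14 at 4.96 and 4.92 against 3.93 and 3.90 (0.33 ± 0.12), and Asns at 114 and 123 against 105 and 103 (0.19 ± 0.07). Pck2, at 38.4 and 44.4 against 36.9 and 33.2 (0.24 ± 0.10), and Slc1a4, at 15.4 and 17.0 against 15.1 and 11.2 (0.30 ± 0.15), complete the 10 members with the smallest p. Phgdh, the first enzyme of serine synthesis, was at 181 and 196 CPM in nanocapsule and 215 and 203 CPM in control libraries (log2 fold -0.15 ± 0.08). The gap between the nearest libraries of the groups was small in several of these, as in Pck2 and Slc1a4, and none passed the test across genes.

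The members with the most UMIs and those furthest apart in the positive cells differed less, or rested on 1 library. Eif4ebp1 was at 512 and 475 CPM in nanocapsule libraries, against 487 and 318 CPM in control libraries. Control 2 alone was low there, and the groups overlapped. Mthfd2, at 254 and 268 CPM with nanocapsules against 253 and 210.3 CPM in controls, and Slc38a2, at 110.0 and 112 against 106 and 99.9, did not overlap but lay close (log2 fold 0.17 ± 0.11 and 0.11 ± 0.07 SE). Slc3a2, at 184 and 187 against 187 and 166, and Slc7a5, at 128 and 143 against 138 and 119, overlapped. Cdsn was at 1.70 and 3.13 CPM with nanocapsules, against 0.328 and 2.17 CPM in controls (log2 fold 0.99 ± 0.87 SE), with Control 1 again the lowest. The log2 fold of Cdsn was 0.15 without Control 1 and 2.87 without Control 2. Cth, at 13.1 and 16.6 against 13.9 and 16.1, and Angptl6, at 6.80 and 6.40 against 7.0 and 5.90, were nearly equal between groups. Without the Fgf21-led cluster, 29 of the 32 members were higher with nanocapsules, beside 50.8% of genes, and the median log2 fold was 0.25. Without the Fgf21-positive cells the median log2 fold was 0.17, and 4 members were higher at an unadjusted p under 0.05, beside 623 of 16124 genes.

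Other genes of the pathway, from lists that do not overlap the members, gave counts of the same kind, and none passed the adjusted test. Of 22 tested targets reported for ATF4 or CHOP, 18 were higher with nanocapsules, beside 50.5% of all genes. At an unadjusted p under 0.05, 4 were higher, beside 3.99% of all genes, and the groups did not overlap for 12, beside 19.7%. The 4 were Atf3, Slc7a11, Aldh18a1 and Herpud1. Atf3, a stress-induced transcription factor, was at 43.3 and 69.5 CPM in nanocapsule libraries, against 28.5 and 22.8 CPM in control libraries (log2 fold 1.14 ± 0.25 SE, adjusted p = 0.648 by edgeR), a larger difference than that of any member whose groups did not overlap. Slc7a11 was at 18.4 and 24.8 CPM against 15.3 and 14.7 CPM. Of 17 cytosolic aminoacyl tRNA synthetases, which load amino acids onto tRNA, 15 were higher, and 12 without overlap, beside 19.7% of all genes. Only 1, Nars, was higher at an unadjusted p under 0.05, with 128 and 152 CPM against 116 and 119.6 CPM. Among 13 genes of the eIF2 kinases and eIF2 machinery 5 were higher and 8 lower, with none at that p. Without overlap 2 were higher and 3 lower, beside 19.7% and 18.8% of all genes. Their 2 most abundant genes, Eif2s2 and Eif2s1, had log2 folds of 0.21 and -0.07. Of 15 endoplasmic reticulum chaperone genes 2 were higher and 13 lower, with a median log2 fold of -0.07 and none at an unadjusted p under 0.05. The groups did not overlap for 2 of them, both lower, beside 18.8% of all genes, and Hsp90b1 and Hspa5 had log2 folds of -0.02 and 0.09. Of 8 genes of mitochondrial proteostasis 5 were higher, and Clpp, a protease subunit, was lower at an unadjusted p under 0.05, at 105 and 103 CPM against 127 and 117 CPM. The groups did not overlap for 3 of the 8, all lower, beside 18.8% of all genes.

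In macrophage-like cells of at least 1500 UMIs, 26 members were tested and none passed by edgeR (0% of 9964 genes) or DESeq2. None was higher at an unadjusted p under 0.05, beside 0.863% of genes, and 1 was lower, beside 0.903%. This was Gdf15, a hormone of cell stress, at 132 and 88.4 CPM in nanocapsule libraries, against 183 and 224 CPM in control libraries (log2 fold -0.90 ± 0.26 SE, adjusted p = 1.00). The groups did not overlap for Gdf15, and its log2 fold stayed between -1.21 and -0.63 when any 1 library was left out. Atf4 was at 241 and 188 CPM with nanocapsules, against 172 and 125 CPM in controls, and Ppp1r15a at 126 and 107 against 83.4 and 93.5. Both belong to the 4 members whose groups did not overlap on the higher side, beside 13.4% of genes, and 2 members, Gdf15 and Nupr1, did not overlap on the lower side, beside 12.9%. The median log2 fold of the 26 was 0.17, but 0.77 without Control 1, 0.05 without Nanocapsule 1, and -0.17 without Control 2. Trib3 was at 11.4, 11.4, 19.8 and 1.44 UPM in macrophage-like cells of Nanocapsule 1, Nanocapsule 2, Control 1 and Control 2, and at 45.8, 40.2, 38.4 and 16.6 UPM in free RNA of the same libraries. The part of free RNA in the levels of macrophage-like cells was not tested.

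In T-like cells 14 members were tested among 5577 genes and none passed by edgeR (0%) or DESeq2. Phgdh and Psat1 were higher at an unadjusted p under 0.05, beside 3.89% of genes, and none was lower, beside 3.75%. Phgdh was at 121 and 189.8 CPM in nanocapsule libraries, against 146 and 38.2 CPM in control libraries. Control 2 alone was low and the groups overlapped (log2 fold 1.27 ± 0.52 SE, edgeR adjusted p = 0.650), and without Control 2 the log2 fold was 0.17. Psat1 behaved alike, at 68.6 and 92.0 CPM against 85.0 and 19.1 CPM, and had a log2 fold of -0.01 without Control 2. The median log2 fold of the members tested was 0.60, and it was 0.74 without Control 1, 0.14 without Control 2 and 0.35 without Nanocapsule 2. The groups did not overlap for 2 members on the higher side, Cebpb and Ppp1r15a, beside 18.4% of genes, and for 0 on the lower side, beside 17.6%. T-like cells numbered 50 and 66 in the nanocapsule and 20 and 80 in the control libraries.

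In the Fgf21-positive cells the treated and control libraries were compared at a limit of 1 Fgf21 UMI, because 2 UMIs left only 17 cells in Control 1. This gave 57 and 54 cells in the nanocapsule and 50 and 39 in the control libraries. Of these, 32 and 14 in the nanocapsule and 33 and 9 in the control libraries held a single Fgf21 UMI, so the make-up differed between libraries. Of 31 members tested, Fgf21 left out, none passed by edgeR (0% of 10746 genes) or DESeq2. None reached an unadjusted p under 0.05, where 1.43% of genes were higher and 0.903% lower. With nanocapsules 17 were higher, beside 50.8% of genes, and the median log2 fold of the 31 was 0.06. The groups did not overlap for 0 members on the higher side, beside 13.3% of genes, and for 4 on the lower side, beside 14.1%. Among the 4 were Sesn2, a sensor of amino-acid supply, at 26.8 and 35.0 CPM with nanocapsules against 37.6 and 43.0 CPM in controls, and Slc1a4 at 41.9 and 31.6 against 50.9 and 43.8. Without Control 2, 22 of the 31 members were higher with nanocapsules and 9 lower, with a median log2 fold of 0.25. Cdsn and Pck2 had log2 folds of 5.13 and 0.92 there. Without Control 1 the median log2 fold was -0.11.

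The members were not equally shared between cell classes. In cells of at least 1500 UMIs, 20 of the 32 were lower in macrophage-like than in tumour-like cells with no overlap between libraries, beside 49.4% of 19322 genes, and 4 were higher, beside 14.7%. The 4 were Cebpb, Gdf15, Ppp1r15a and Slc3a2. Cebpb was at 1192, 848, 929 and 806 UPM in macrophage-like cells of Nanocapsule 1, Nanocapsule 2, Control 1 and Control 2, more than in any tumour-like library. Gdf15 was at 122, 89.96, 184 and 228 UPM there, whereas Fgf21-positive tumour cells reached at most 18.2. In T-like cells 24 members were lower and 1, Ppp1r15a, higher, beside 50.9% and 11.3% of genes, and in B-like cells 25 were lower and 2, Ppp1r15a and Slc1a5, higher, beside 58.9% and 9.87%. Chac1, Aldh1l2, Grb14, Cdsn, Gdf15 and Vldlr had, like Fgf21, no UMI in T-like cells of any library, and the immune cells were shallower than tumour-like cells throughout. In the shallow barcodes led by haemoglobin transcripts 12 members were higher than in tumour-like cells with no overlap between libraries, beside 6.64% of genes, and 6 were lower, beside 53.3%. They fell in the cluster of 483 barcodes with Fgf21 among its leading genes and in another of 602. Nupr1 was at 206 and 216 UPM in the first in Nanocapsule 1 and 2, against 120.2 and 282 in Control 1 and 2, and Asns at 258 and 304 against 214 and 340.1. In the cluster of 602 Nupr1 was at 37.0 and 40.3 UPM with nanocapsules, against 39.1 and 26.2 in controls, so the class joins barcodes of unlike levels.

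**Figure D5:**
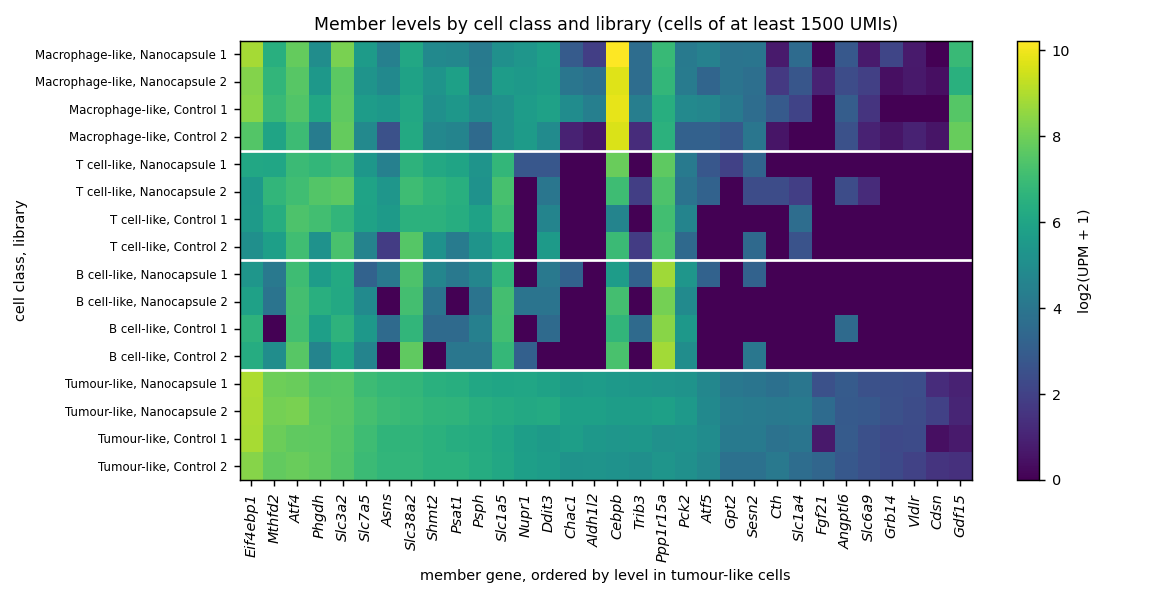
Levels of the 32 members as log2(UPM + 1), with a pseudocount of 1, in macrophage-like, T-like, B-like and tumour-like cells, with 1 row per library and members ordered by their level in tumour-like cells. Cebpb and Gdf15 are brighter in macrophage-like than in tumour-like rows, Ppp1r15a is bright in all immune rows, and the right part of the T-like and B-like rows is mostly at 0.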

How the data were processed

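The authors deposited raw UMI counts per gene and barcode for each of 4 libraries, with no filter on barcodes. Per the labels, libraries used the 10x Genomics v2 chemistry, and mm10 and Cell Ranger 2.1.1 come from the submitters' processing notes. Cell Ranger 4 is named per the file headers, and which of the 2 made the deposited counts is not given in the sources used here. The 32 members, the pathway lists and the tests were chosen with earlier results of these data known.

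A barcode counted as a cell when its UMIs reached the 99th percentile among the 3000 largest barcodes of its library divided by 10, with at least 500 UMIs and 200 genes, and at most 20% mitochondrial UMIs (7044 cells). A second set used 1500 UMIs (9548 cells) and served the immune classes. Scrublet, at an expected rate of 0.06, marked 1 and 3 cells, under the 0.5% at which a caller counts as working, so no doublet was removed. Clusters came from scanpy 1.11.5 (2000 variable genes, 30 components, 15 neighbours, Leiden resolution 1.0, no integration) and were named from marker lists at a median log2 fold of 3 over other clusters, or for tumour-like cells of 2 over clusters of other named classes. Taking the median over those clusters was decided after their values were seen.

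Sums of UMIs per library and class went into edgeR 4.0.16 under R 4.3.3 (scaling by TMM, filterByExpr, robust quasi-likelihood test, Benjamini-Hochberg over all genes, threshold 0.05). SE is the absolute log2 fold over the square root of F. DESeq2 1.42.0, RLE scaling, no filter, a replicate block, other cell sets and leaving out each library were alternatives. The fit was tested on simulated data. Members to be given with full values were those with the 10 smallest p in tumour-like cells, those called in any fit, the 10 highest and 5 lowest folds in Fgf21-positive cells and the 8 with most UMIs. For Fgf21-positive cells several of these, such as Shmt2 and Mthfd2, are given by their median fold only. Other members and list genes were named after their values were seen. Log2 folds of Fgf21-positive over other cells use plain UMIs per 1000000 with no pseudocount, except the ranking over all genes, which adds 1.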

Additional observations from a re-analysis of the deposited data

Results flagged for a closer look

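For 4 members, Nupr1, Slc1a4, Slc38a2 and Mthfd2, the nanocapsule libraries lay on opposite sides of the control libraries in different sets of cells, and the difference between the sets was not tested in any of them. Nupr1 had a log2 fold of 0.37 in tumour-like cells and of -0.14 in macrophage-like cells, where it was at 43.7 and 43.7 CPM in nanocapsule and 48.7 and 47.7 CPM in control libraries. Slc1a4 had 0.30 in tumour-like cells and 2.50 in macrophage-like cells, but -0.37 in Fgf21-positive cells. Slc38a2 had 0.11 in tumour-like and -0.26 in Fgf21-positive cells, and Mthfd2 had 0.17 and -0.07 in the same sets. Fgf21-positive cells are taken here at the limit of 1 Fgf21 UMI. The Fgf21-positive cells are a small part of the tumour-like cells, and Slc1a4 in macrophage-like cells was at 11.6 and 5.62 CPM in nanocapsule libraries, against 3.16 and 0 CPM in control libraries. Between tumour-like and macrophage-like cells 1 of 26 members lay on opposite sides, beside 4.07% of the 9530 genes tested in both sets. Between tumour-like and Fgf21-positive cells 3 of 31 did, beside 2.1% of 10746 genes, and between macrophage-like and Fgf21-positive cells 1 of 26, beside 2.57% of 9015 genes. In Fgf21-positive cells alone 4 of 31 members were lower without overlap, near the 14.1% of genes that were, so nothing is read from these counts.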

How the results depend on the processing

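Members called in tumour-like cells numbered 0 by edgeR, 2 by DESeq2 and 1 with the replicate block. Of all 16191 genes there, DESeq2 called 79 higher and 16 lower, and the block 335 higher and 269 lower. In all called cells the members called numbered 0, 3 and 1. Of all 16937 genes there, DESeq2 called 135 higher and 37 lower, and the block 374 higher and 174 lower. The block called Nupr1 in both, and the correlation of the replicate difference between groups was 0.36 over genes, with no label that pairs the numbers. Members higher at an unadjusted p under 0.05 numbered 4 in tumour-like cells without Fgf21-positive cells, and 2 to 13 with 1 library left out (3 to 13 in all called cells, 0 to 12 in macrophage-like, 1 to 6 in T-like and 0 to 11 in Fgf21-positive cells, where 0 to 2 were called). In macrophage-like cells they numbered 1 by DESeq2, 3 with no filter, 3 with the block and 2 under the stricter cell rule. Over all genes 46 of 9964, 273 of 18000, 150 of 9964 and 218 of 7526 were higher at that p in these fits. In T-like cells such members numbered 0 by DESeq2, 0 with the block and 5 with no filter, and in Fgf21-positive cells 1 with no filter. All genes higher there numbered 49 of 5577, 123 of 5577, 510 of 14257 and 407 of 18062. Leaving out 1 library leaves 1 in its group, and the counts over all genes moved too. Nothing is read from the ranges of members over such fits. With 1 library left out the median log2 fold was 0.10 to 0.25 in tumour-like, 0.0704 to 0.24 in all called, -0.17 to 0.77 in macrophage-like, 0.14 to 0.74 in T-like and -0.11 to 0.25 in Fgf21-positive cells. The log2 ratio of Fgf21-positive shares was -0.10 to 2.45 with 1 library left out and -0.40 when the Fgf21-led cluster took the place of the UMI limit. Fgf21 in tumour-like cells was -0.21 to 3.67 and Psat1 in T-like cells -0.0127 to 2.11. Thinning to 4000 UMIs gave a median Fano factor over members of 1.31, against 1.61 at 8000 UMIs. The causes were not tested. Fits at 2 and 5 Fgf21 UMIs left under 20 cells in Control 1 and were not run. Treatment comparisons in Fgf21-positive cells therefore used at least 1 Fgf21 UMI, whereas the fit without Fgf21-positive cells left out those with at least 2. The Fgf21-led cluster was already among tumour-like cells. Leaving out that cluster, and the limit of 1 UMI, were chosen after seeing the data.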
